A study of Mus musculus with 11 samples.

Results

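Complex I (NADH:ubiquinone oxidoreductase) is the entry point of electrons from NADH into the mitochondrial respiratory chain, and skeletal muscle carries a great deal of it. Its matrix arm oxidises NADH through a flavin and a chain of iron-sulfur clusters, and its membrane arm pumps protons. The core subunits are those conserved from bacteria and perform the chemistry, the accessory (supernumerary) subunits surround and stabilise them, and assembly factors, named Ndufaf, build the complex and then leave it. The core subunits of the matrix arm are encoded in the nucleus, whereas those of the membrane arm are encoded in mitochondrial DNA.

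The genes described here were all those whose symbol in the array annotation began with Nduf. This gave 42 of 21759 gene symbols, represented by 51 of 28350 probe sets: 7 core subunits, 29 accessory subunits, 4 assembly factors (Ndufaf1 to Ndufaf4) and Ndufa4 with its paralogue Ndufa4l2, which are kept apart because Ndufa4 is now counted with complex IV. Where a gene had several probe sets (9 genes), the one with the highest signal was used. A total of 41 genes were tested. Ndufaf2 stayed below the minimum signal of 30 in every group, with log2 signals between 4.31 and 4.74, and was not tested.

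The RNA came from the tibialis anterior, a fast hindlimb muscle, of 14-week-old male mice, with 1 Mouse Gene ST 1.1 array per mouse. The C57 group were 3 C57/Bl10 wild-type mice. The mdx group were 4 mice of the C57/Bl10ScSn-Dmd mdx/J strain, which carry a nonsense mutation in the dystrophin gene and so lack full-length dystrophin. The treated group were 4 mdx mice of the same strain that had received 1 tail vein dose of 12.5 mg/kg Pip6e-PMO at 12 weeks of age, a peptide-conjugated antisense oligonucleotide that restores a shortened dystrophin by exon skipping, so they too carry the mutation. The treated mice were compared with mdx mice for which no control injection is described in the labels.

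The median signal of the arrays ran from 27.5 to 28.6. The number of arrays limits the precision. The probe set for the dystrophin gene itself has 80 probes. Their positions were not examined, so it is not used to read the nonsense mutation or the skipped exon. The log2 signals of this probe set were 5.77 to 5.87 in C57, 4.60 to 5.82 in the mdx group and 5.51 to 6.34 in the treated group. The summed signal of 6 fast-fibre genes, the defining genes of this muscle, was 37900 to 40400 in C57, 39900 to 40400 in the mdx group and 37300 to 41300 in the treated group. The array of treated mouse 2 departed more widely from its group than any other. Its scaled median absolute deviation was 0.395, against at most 0.262 in the remaining 10 mice. The counts of Nduf genes called are given with and without this mouse. In the paper, treated sample T2 had the lowest exon skipping by RT-qPCR and the lowest dystrophin by mass spectrometry. Western blot values there did not correlate significantly with these measures. Among the treated samples, the mRNA profile of T2 lay nearest to mdx. The match of T2 to treated mouse 2 rests on the number. The cause of the wider departure of this array was not tested.

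The first question was whether complex I mRNAs differed between mdx and C57 muscle. The answer for most single genes was a small shift within the spread between mice. In mdx muscle 36 of the 41 genes had a lower mean than in C57 muscle, but the differences were slight, with a median of -0.10 on the log2 scale, and 1 gene, Ndufa8, passed the test, which was limma at a threshold of 0.05 with p-values adjusted (Benjamini-Hochberg) across the 14494 probe sets that were tested. Across all probe sets tested, 52.2% had a difference below 0 and the median was -0.01. The median distance of the 41 genes from the mdx mean was 0.01, 0.05 and 0.24 in C57 mice 1, 2 and 3. With 1 mouse left out, the median difference of the accessory genes between mdx and C57 mice ran from -0.14 to -0.02. In this comparison 4.96% of all probe sets were called lower and 7.06% higher, so 1 member called lower and 0 called higher is no more than the background. No member rose at an unadjusted p under 0.05 either, and 3 fell at that level. The call of Ndufa8 was lost without C57 mouse 2 or without C57 mouse 3, and the count was 2, both lower, without treated mouse 2.

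Ndufa8 encodes an accessory subunit of the membrane arm that lies on the intermembrane-space side and is held together by disulfide bonds. Its log2 signals were 11.77, 11.79 and 11.92 in the C57 mice and 11.36, 11.45, 11.38 and 11.26 in the mdx mice. In treated mice they were 11.61, 11.23, 11.66 and 11.54. Every mdx mouse lay below every C57 mouse, and 3 of the 4 treated mice lay between the ranges of those groups, while treated mouse 2 was the lowest of all 11. The mdx mean was lower by a log2 difference of -0.46 ± 0.11 (SE; n = 4 and 3; -27.5%; limma, adjusted p = 0.0175). The treated mean differed from mdx by 0.15 ± 0.10 (adjusted p = 0.35, 95% interval -0.08 to 0.37) and from C57 by -0.32 ± 0.11 (adjusted p = 0.0559). All 4 treated mice were below every C57 mouse.

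**Figure D1:**
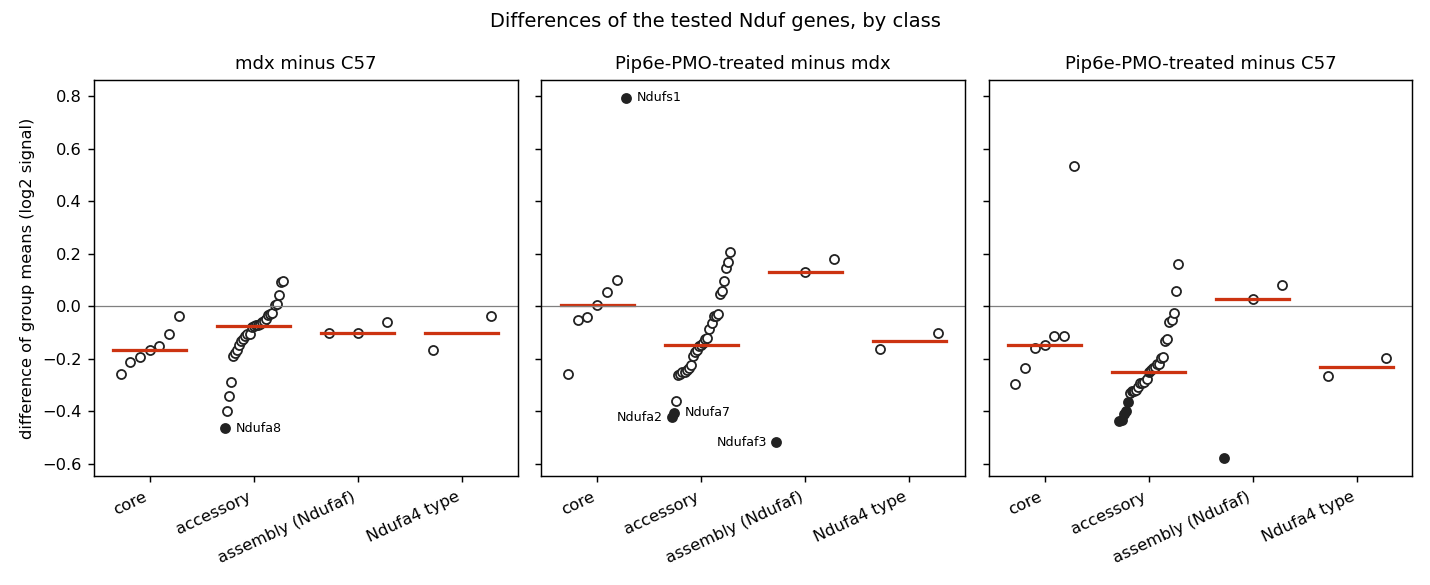
Difference of group means on the log2 scale (vertical axis) for each of the 41 tested Nduf genes, by class, in the mdx against C57, treated against mdx and treated against C57 comparisons. Each circle is 1 gene, filled circles passed an adjusted p of 0.05 (the 8 in the right panel are named in the text), and red bars are class medians: in the mdx panel all 7 core genes lie below 0 and Ndufa8 is the lowest point.

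Among the core subunits none passed the test in mdx muscle, although all 7 differences were below 0, from -0.26 to -0.04 with a median of -0.17. The differences of the flavin- and NADH-binding subunit Ndufv1 (-0.17 ± 0.11), its partner Ndufv2 (-0.21 ± 0.15), the quinone-site subunit Ndufs7 (-0.11 ± 0.08), the iron-sulfur subunits Ndufs1 (-0.26 ± 0.20) and Ndufs8 (-0.04 ± 0.12), and Ndufs3 (-0.19 ± 0.10) had adjusted p-values between 0.267 and 0.901. Ndufs7, which carries the last iron-sulfur cluster before ubiquinone, was the core gene whose groups did not overlap. Its log2 signals were 12.95, 12.94 and 13.03 in C57 and 12.93, 12.86, 12.86 and 12.82 in mdx mice.

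The 29 accessory subunits had a median difference of -0.07 in mdx muscle, and 24 of them were below 0. After Ndufa8, the lowest were Ndufab1, the mitochondrial acyl carrier protein (-0.40 ± 0.13, adjusted p = 0.0806), and Ndufs4, a matrix-arm subunit whose loss in people causes Leigh syndrome (-0.34 ± 0.23, adjusted p = 0.416). The accessory subunits with the highest differences were Ndufa13 (0.10 ± 0.08), Ndufa2 (0.09 ± 0.13) and Ndufb11 (0.04 ± 0.10), none of which passed. The mdx mice lay wholly below the C57 mice for 5 of the 41 genes (Ndufs7, Ndufa8, Ndufa12, Ndufab1 and Ndufb10) and wholly above them for 0. The background for this was 11.3% of all probe sets lower and 13.1% higher.

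By position in the complex, the median difference was -0.12 over the 16 matrix-arm genes and -0.07 over the 19 membrane-arm genes. Ndufa4 differed by -0.16 ± 0.13 and Ndufa4l2 by -0.04 ± 0.10, neither past the test. The 41 subunits of complexes II to V tested had a median of -0.08, with 33 below 0 and 0 called by limma (2 at an unadjusted p under 0.05, both lower). In bulk muscle RNA, fewer muscle fibres and less mRNA per fibre cannot be told apart. Macrophage markers moved in this comparison too: 7 of 8 were called higher in mdx, and their summed signal was 1110 to 1500 in C57 and 2850 to 4460 in mdx mice. The fibroblast sum rose from 3730 to 5040 in C57 to 5580 to 6870 in mdx mice, with 3 of 6 genes called higher, and the sum of 5 genes of regenerating fibres from 272 to 296 to 571 to 980, with 5 of 5 called. Itgam among the macrophage genes and Myh3 among those of regenerating fibres were under the minimum signal of 30 in C57 mice and were tested through the groups where they were higher. The part these cells play in the Nduf differences was not tested. The fast-fibre genes had 0 of 6 called by limma, and 0 at an unadjusted p under 0.05. In the oxidative and slow fibre list, where Myh7 was too dim to test, Myl3 was called lower (-1.67 ± 0.22) and Atp2a2 higher (0.76 ± 0.10). The adipocyte, endothelial and blood lists had 0 of 4, 0 of 4 and 0 of 3 called, and 0 of them at an unadjusted p under 0.05. Of 8 regulators of mitochondrial genes 0 were called by limma, and 1 was lower at an unadjusted p under 0.05.

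The assembly factors named Ndufaf in the annotation were little moved in mdx muscle. Ndufaf1, which works with Ecsit and Acad9 on a membrane-arm intermediate, differed by -0.10 ± 0.14, and Ndufaf3 and Ndufaf4, which act together on the matrix-arm module that binds quinone, by -0.06 ± 0.16 and -0.10 ± 0.13, all with adjusted p of at least 0.70. Further assembly factors are listed under other names and lay outside the rule. The annotation carries Ndufaf5, Ndufaf6 and Ndufaf7 under the older symbols 2310003L22Rik, 2310030N02Rik and 2410091C18Rik, and they were matched by Entrez gene number to RefSeq. These genes were looked up after values had been seen, and they are described as such.

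Both Ndufaf5, which hydroxylates an arginine of Ndufs7, and Ndufaf6 fell in mdx muscle and stayed low after treatment. The log2 signals of Ndufaf6 were 7.30, 7.01 and 7.05 in C57, 6.57, 6.53, 6.45 and 6.39 in mdx, and 6.63, 6.52, 6.46 and 6.67 in treated mice. All 8 mice with the mutation were below all 3 C57 mice. The mdx difference was -0.64 ± 0.10 (-35.6%; limma, adjusted p = 0.00187) and the treated difference from C57 was -0.55 ± 0.10 (adjusted p = 0.00316), whereas treated and mdx mice differed by 0.09 ± 0.09 (95% interval -0.12 to 0.29; adjusted p = 0.565). Ndufaf5 had log2 signals of 6.34, 6.15 and 6.33 in C57, 5.91, 5.82, 5.79 and 5.55 in mdx, and 5.91, 5.58, 5.91 and 5.91 in treated mice. Again no mouse with the mutation reached the C57 range. The difference of Ndufaf5 was -0.51 ± 0.12 in mdx (adjusted p = 0.015) and -0.45 ± 0.12 in treated mice against C57 (adjusted p = 0.0188). Both calls were lost without C57 mouse 1 (adjusted p = 0.0552 and 0.0556) or without C57 mouse 3 (0.0613 and 0.0693). They were also lost with the methods' t-test (adjusted p = 0.065 and 0.0707). Ndufaf7, an arginine methyltransferase, differed by -0.25 ± 0.10 in mdx (adjusted p = 0.157) and by 0.32 ± 0.10 between treated and mdx mice (adjusted p = 0.0543). Its treated mice, at 6.12, 6.20, 6.46 and 6.19, all lay above the mdx mice, at 5.83, 6.05, 5.91 and 5.92. Without treated mouse 2 the difference of Ndufaf7 between treated and mdx mice was called (0.33, adjusted p = 0.0345).

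Of 7 listed assembly factors with other names, 1 was called in mdx muscle: Ecsit, which binds Ndufaf1. Its log2 signals were 9.34, 9.34 and 9.39 in C57, 8.91, 8.85, 8.85 and 8.91 in mdx, and 9.11, 8.77, 8.88 and 8.99 in treated mice. The mdx and C57 mice each sat within 0.06 of each other, and the gap between the groups was far wider. The difference was -0.48 ± 0.09 in mdx (-28.1%; adjusted p = 0.0063) and -0.42 ± 0.09 in treated against C57 mice (adjusted p = 0.00865), while treated and mdx mice differed by 0.06 ± 0.09 (adjusted p = 0.688). Of these 7 factors 0 were called between treated and mdx mice (3 at an unadjusted p under 0.05, all higher). Acad9 had -0.38 ± 0.15 in mdx (adjusted p = 0.131) and 0.39 ± 0.14 in treated against mdx mice (adjusted p = 0.0807).

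**Figure D2:**
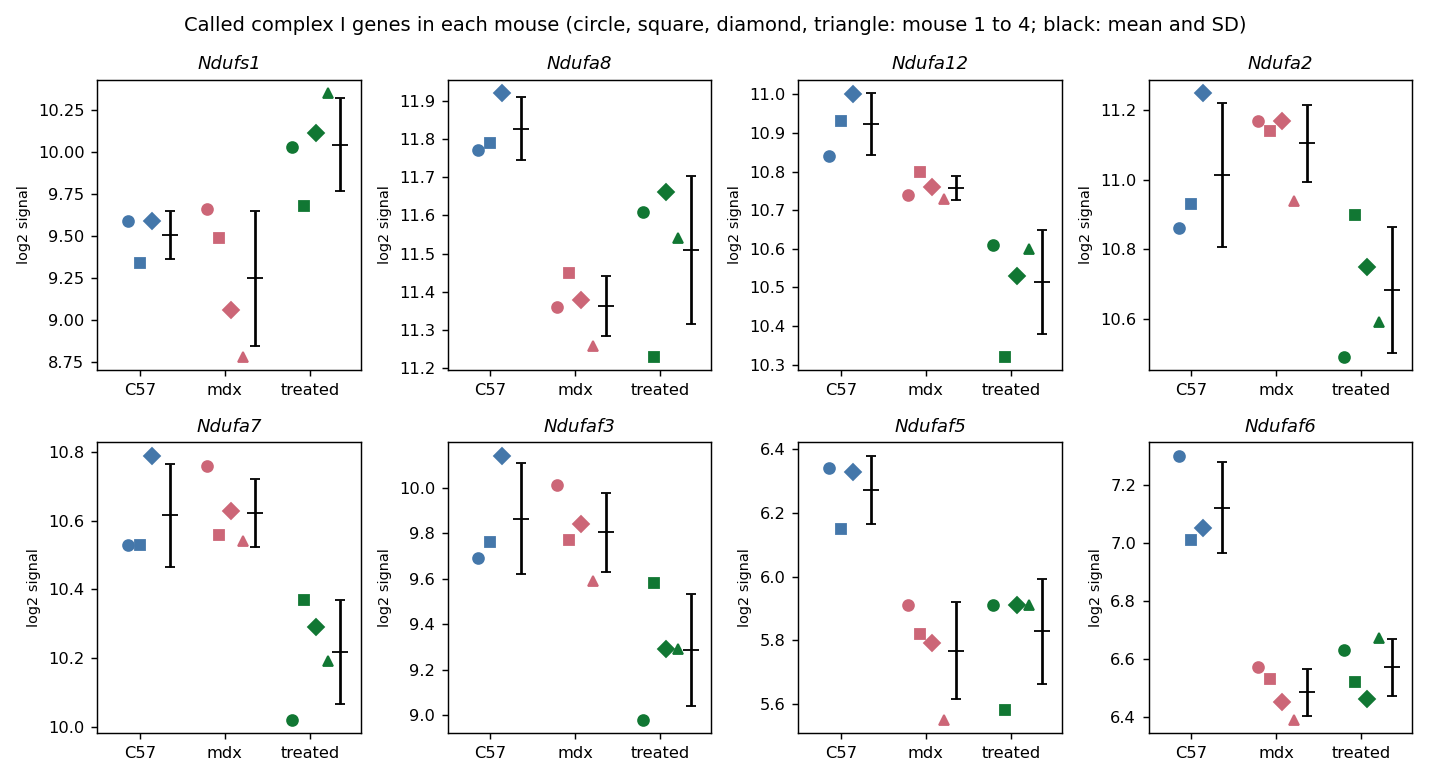
Log2 signal (vertical axis) in each mouse of the C57, mdx and treated groups for 8 genes called in at least 1 comparison, with the mean and SD of each group in black. Ndufa8, Ndufaf5 and Ndufaf6 are lower in all 4 mdx mice than in the 3 C57 mice, whereas Ndufa2, Ndufa7 and Ndufaf3 are lower in the treated mice than in the mdx mice and Ndufs1 is higher.

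The promoters were read for the letters of known mitochondrial-gene factors. RefSeq windows of 250 bases before to 50 bases after each start (build GRCm38.p6) were found for 39 of 45 genes. The 45 are the 42 Nduf symbols and the 3 older-symbol factors. The called genes Ndufs1, Ndufa2 and Ndufaf6 were among those without a window, so their promoters were not searched. The core CGCATGCG of nuclear respiratory factor 1, which reads the same on both strands, was in the windows of 4 of the 39 (10.3%), against 2.07% of 27025 genes. Ndufaf5, a holder, is among the older-symbol genes that were looked up after values had been seen. The difference between the shares was not tested. The holders are shown because Ndufa8 and Ndufaf5, both called lower in mdx muscle, are among them. They are 60 bases each, 5′ to 3′ on the gene's strand, with the core in capitals and bases counted from the start, negative before it.
Ndufa8 (chr2:36049314-36049373, minus strand, core from base -9): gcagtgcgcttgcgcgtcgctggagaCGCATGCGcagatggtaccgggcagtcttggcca
Ndufaf5 (chr2:140170616-140170675, plus strand, core from base 18): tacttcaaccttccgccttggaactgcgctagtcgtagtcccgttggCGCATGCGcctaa
Ndufa11 (chr17:56717677-56717736, plus strand, core from base -59): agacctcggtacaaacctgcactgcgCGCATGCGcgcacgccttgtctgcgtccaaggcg
Ndufaf4 (chr4:24897945-24898004, plus strand, core from base -112): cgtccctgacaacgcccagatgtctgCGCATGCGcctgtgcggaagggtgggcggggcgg
Neither Ndufa11 (-0.07 ± 0.12) nor Ndufaf4 passed the test in mdx muscle. The mRNA of the factor itself, Nrf1, differed by 0.16 ± 0.10 in mdx (adjusted p = 0.344) and by 0.04 ± 0.09 between treated and mdx mice (adjusted p = 0.787).

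A further run, AAGATGGCG, which holds the core of the YY1 motif, stood in 5 of the 39 windows (12.8%) against 1.64% of genes, always on the gene's own strand and within the start of the transcript. Its holders were the core gene Ndufs7 and the accessory genes Ndufa9, Ndufc1, Ndufs4 and Ndufs6. The run began at base 25 in Ndufs7, 30 in Ndufa9, 23 in Ndufc1, 36 in Ndufs4 and 34 in Ndufs6. It contains the letters ATG. Whether these are the start codon of the protein, which would set the strand and place of the run, was not examined. The sites of 3 of these genes are shown, 29 bases each, because Ndufs7 was the core gene whose mdx and C57 mice did not overlap.
Ndufs7 (chr10:80249463-80249491, plus strand): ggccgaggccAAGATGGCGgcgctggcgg
Ndufs4 (chr13:114388045-114388073, minus strand): cgtttgcctacaggAAGATGGCGgcggtc
Ndufs6 (chr13:73328433-73328461, minus strand): agggtcaccggcAAGATGGCGgcggtgct
None of the 5 was called in any comparison. The core CCGGAAG of the ETS factors, searched on both strands, was in 5 windows (12.8%) against 9.93% of genes, and the GC box GGGCGG, also on both strands, in 20 (51.3%) against 38.2%. A match describes letters and not a bound factor.

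The next question was whether complex I mRNAs differed between treated and mdx muscle. Treated mice differed from mdx mice at 4 of 41 genes: Ndufs1 rose, and Ndufa2, Ndufa7 and Ndufaf3 fell. In this comparison 7.26% of all probe sets were called higher and 3.88% lower, against 1 and 3 of the 41 members. Relative to the background, then, fewer members were called higher and more were called lower, and this contrast of shares was not tested. Differences below 0 were found for 29 of the 41, with a median of -0.12, against 47.2% and a median of 0.02 over all probe sets tested. The count depended on the fit and on the mice used. It was 0 with the methods' t-test, with only the 2 groups compared or with the replicate number as a block, 1 with quantile normalisation repeated, 2 with no signal filter and 14 with array weights. It was 9 (7 lower and 2 higher) without treated mouse 2, 2 without C57 mouse 2, 1 without mdx mouse 1 or mdx mouse 2, and 0 without mdx mouse 3, mdx mouse 4, treated mouse 1, treated mouse 3 or treated mouse 4. At a stricter setting that asks for 1.5-fold as well as p below 0.01 before adjustment, Ndufs1 was the 1 member to pass, with a background of 3.37% of probe sets higher and 1.62% lower. That setting passed 0 members in mdx against C57, where the background was 5.13% higher and 2.41% lower.

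Ndufs1 encodes the large iron-sulfur subunit of the matrix arm. Its log2 signals were 9.59, 9.34 and 9.59 in C57 mice, 9.66, 9.49, 9.06 and 8.78 in mdx mice, and 10.03, 9.68, 10.11 and 10.35 in treated mice. All 4 treated mice exceeded every mdx and every C57 mouse, although treated mouse 2 exceeded mdx mouse 1 by very little, and the mdx mice were the most spread. The treated mean was above mdx by 0.80 ± 0.19 (SE; n = 4 and 4; 73.5%; limma, adjusted p = 0.0263) and above C57 by 0.54 ± 0.20 (adjusted p = 0.0732). The call against mdx was lost, with adjusted p from 0.061 to 0.0782, without mdx mouse 3, mdx mouse 4, treated mouse 1, treated mouse 3 or treated mouse 4. The call against C57 was gained without treated mouse 2 (0.66, adjusted p = 0.0272) or without mdx mouse 4 (0.54, adjusted p = 0.0456).

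The other core subunits did not follow Ndufs1. Their differences between treated and mdx mice ran from -0.26 for Ndufs8 (± 0.11, adjusted p = 0.135) to 0.10 for Ndufv2 (± 0.14, adjusted p = 0.659). Ndufs3, Ndufs7 and Ndufv1 differed by -0.04 ± 0.09, -0.05 ± 0.07 and 0.06 ± 0.10. Ndufs8 and Ndufv2 each had treated mouse 2 far below the rest: at 11.29 against 11.71, 11.73 and 11.73 for Ndufs8, and at 10.95 against 11.50, 11.55 and 11.61 for Ndufv2.

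The accessory subunits were, in the main, lower in treated than in mdx muscle, with 23 of 29 differences below 0, a median of -0.15 (-0.054 with quantile normalisation repeated) and 2 called. Ndufa2, a matrix-arm subunit with a thioredoxin-like fold, had log2 signals of 11.17, 11.14, 11.17 and 10.94 in mdx and 10.49, 10.90, 10.75 and 10.59 in treated mice. Its C57 mice, at 10.86, 10.93 and 11.25, overlapped both groups. The treated mean was lower by -0.42 ± 0.12 (-25.4%; adjusted p = 0.0405). Ndufa7, another matrix-arm subunit, had 10.76, 10.56, 10.63 and 10.54 in mdx and 10.02, 10.37, 10.29 and 10.19 in treated mice, which all fell below the C57 mice as well (10.53, 10.53 and 10.79). Its difference was -0.41 ± 0.10 (-24.5%; adjusted p = 0.0315). The call of Ndufa2 was lost without any 1 mouse of C57 mouse 2, the mdx group, or treated mice 1, 3 and 4, with adjusted p from 0.0569 to 0.111, and that of Ndufa7 without any 1 mdx mouse or treated mouse 1, 3 or 4, with adjusted p from 0.0509 to 0.0855.

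Next lowest was Ndufs5, an intermembrane-space subunit (-0.36 ± 0.13, adjusted p = 0.0883). The highest accessory differences were those of Ndufa10, a membrane-arm subunit related to nucleoside kinases (0.21 ± 0.18), the matrix-arm subunit Ndufa5 (0.17 ± 0.11) and Ndufa8, and none of them passed. Ndufa10 was called higher without treated mouse 2 (0.40, adjusted p = 0.0412). The treated mice lay wholly below the mdx mice for 7 genes (Ndufa2, Ndufa7, Ndufa12, Ndufb4, Ndufb9, Ndufv3 and Ndufaf3) and wholly above them for 1 (Ndufs1). The background was 6.69% of probe sets lower and 9.29% higher.

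Among assembly factors Ndufaf3 fell. Its log2 signals were 10.01, 9.77, 9.84 and 9.59 in mdx and 8.98, 9.58, 9.29 and 9.29 in treated mice, with C57 mice at 9.69, 9.76 and 10.14. The treated mice were the 4 lowest of the 11, with treated mouse 2 only just below mdx mouse 4. The difference was -0.52 ± 0.14 from mdx (-30.1%; adjusted p = 0.0405) and -0.58 ± 0.16 from C57 (-33.0%; adjusted p = 0.02). The call against mdx was lost without C57 mouse 2, any 1 mdx mouse, or treated mouse 1, 3 or 4 (adjusted p 0.0567 to 0.106), and that against C57 without C57 mouse 3 (0.0961). Its partner Ndufaf4 differed from mdx by 0.13 ± 0.12 (adjusted p = 0.482) and Ndufaf1 by 0.18 ± 0.13 (adjusted p = 0.353). Ndufa4 and Ndufa4l2 differed by -0.10 ± 0.12 and -0.16 ± 0.10, with adjusted p of 0.577 and 0.271.

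**Figure D3:**
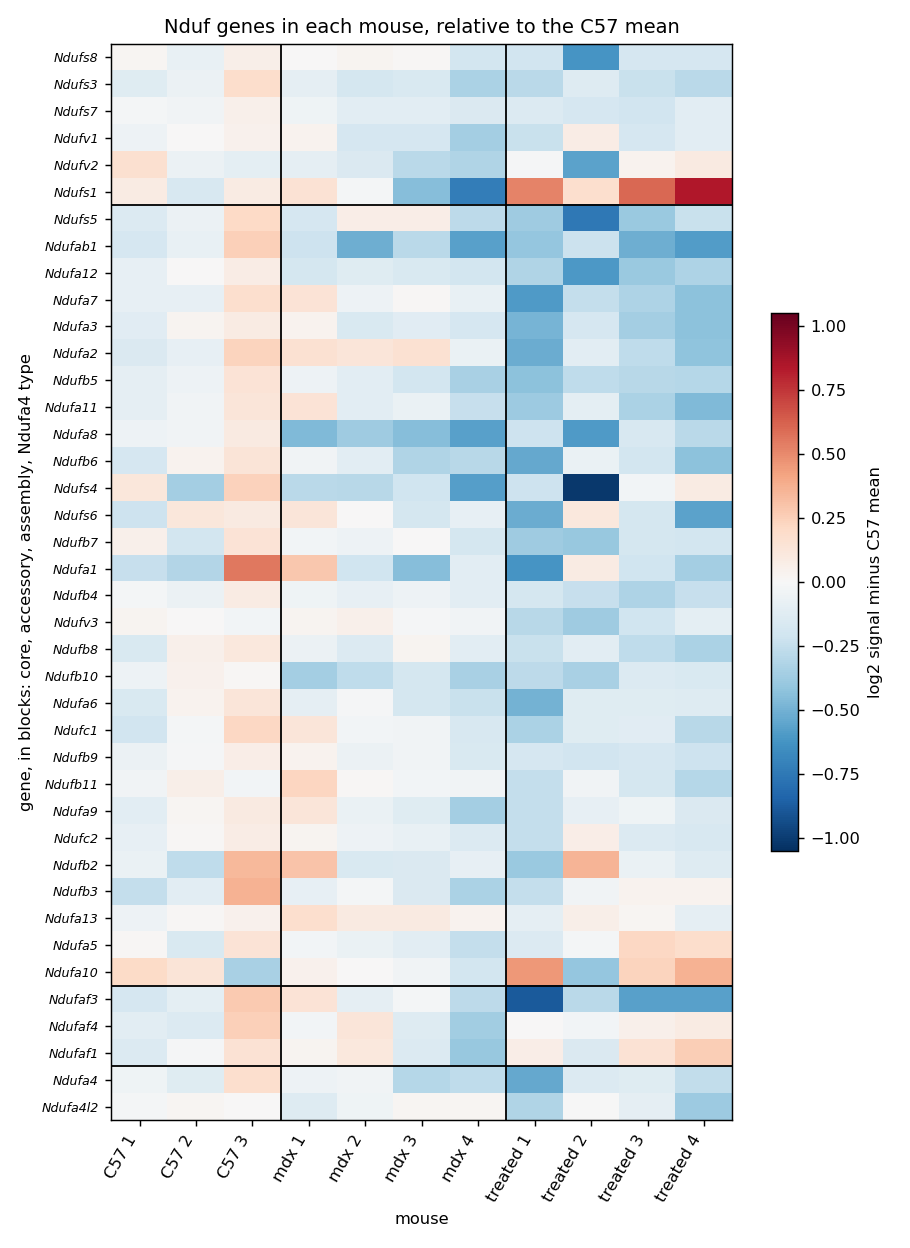
Log2 signal of the tested Nduf genes, 1 left out (rows, in blocks of core, accessory, assembly and Ndufa4-type genes, ordered within a block by the treated minus C57 difference) in each of the 11 mice (columns), as the difference from the C57 mean. Blue is lower and red higher: most rows are blue in the treated mice, Ndufs1 is red in all 4, and treated mouse 2 has its darkest blue at Ndufs4 and Ndufs5.

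Regulators of mitochondrial genes were measured beside the subunits. Gabpa, an ETS-family activator of respiratory-chain genes, had log2 signals of 5.74, 5.74, 5.71 and 5.46 in mdx and 6.36, 6.01, 6.39 and 6.68 in treated mice, with no overlap. It rose by 0.70 ± 0.13 against mdx (62.2%; adjusted p = 0.0143) and by 0.63 ± 0.14 against C57 (adjusted p = 0.00934). Both calls of Gabpa were lost with the methods' t-test (adjusted p = 0.0977 and 0.0872). Gabpa was the 1 of 8 listed regulators called against mdx. At an unadjusted p under 0.05 in limma, 5 of the 8, Gabpa among them, were higher and 0 lower. Ppargc1a, a coactivator of mitochondrial biogenesis, was above C57 by 0.75 ± 0.25 (adjusted p = 0.0453), with treated mice at 8.68, 7.65, 7.71 and 8.06 and C57 mice at 7.15, 7.55 and 7.14, and differed from mdx by 0.50 ± 0.23 (adjusted p = 0.16). Its call against C57 was lost in 16 of 23 alternatives, among them without any 1 C57 mouse, without mdx mouse 1, 2 or 3 and without treated mouse 1 or 4 (adjusted p from 0.0528 to 0.145). Tfam, which packages and transcribes mitochondrial DNA, differed from mdx by 0.48 ± 0.16 (adjusted p = 0.0652). Of 41 subunits of complexes II to V, 1 was called against mdx, the succinate dehydrogenase subunit Sdha (0.47 ± 0.11, adjusted p = 0.0263), and their median was -0.08.

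Markers of other cells also moved between treated and mdx mice. All 4 adipocyte genes were called lower, their summed signal being 318 to 992 in the mdx and 137 to 428 in the treated group, and 1 of 4 endothelial genes was called higher, with sums of 1810 to 2250 and 2080 to 2780. The oxidative and slow fibre list was mixed: Myh2 (1.45 ± 0.29) and Myl3 (0.80 ± 0.20) were called higher and Myl2 and Tnnt1 (-0.79 ± 0.20) lower, of which Myl2 was dim, with a mean log2 signal of 4.18 in treated mice. The macrophage sum was 2850 to 4460 in the mdx and 2230 to 3140 in the treated group, with 1 gene called lower and 1 higher. Of the 5 regenerating-fibre genes 1 was called lower, with a sum of 312 to 598 after treatment, and of the 6 fibroblast genes 0 were called (1 at an unadjusted p under 0.05, higher). The part of these lists in the Nduf differences was not tested. The fast-fibre genes again had 0 of 6 called by limma and 0 at an unadjusted p under 0.05.

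Treated mice were last set against C57 mice. This comparison shares its treated mice with the previous one and its C57 mice with the first. It held the most calls: 8 of 41 genes were called lower and 0 higher (1 at an unadjusted p under 0.05, Ndufs1), where 8.96% of all probe sets were called lower and 15.6% higher. The share of members called lower was thus above the background, which was not tested either. The differences were below 0 for 36 of the 41, with a median of -0.23, against 49.6% and a median of 0.003 over all probe sets. The 8 genes were the accessory subunits Ndufs5 (-0.44 ± 0.14), Ndufab1 (-0.43 ± 0.13), Ndufa12 (-0.41 ± 0.09), Ndufa7 (-0.40 ± 0.11), Ndufa3 (-0.37 ± 0.10), Ndufb5 (-0.32 ± 0.10) and Ndufb4 (-0.25 ± 0.08), and the assembly factor Ndufaf3. Their adjusted p-values ran from 0.00993 for Ndufa12 to 0.0442 for Ndufb4. The call of Ndufs5 was lost in 12 of 23 alternatives, among them without treated mouse 2 (-0.33, adjusted p = 0.0601). At the stricter setting 0 members passed, with a background of 8.77% higher and 2.46% lower.

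Ndufa12 encodes a matrix-arm subunit that takes the place of its paralogue Ndufaf2 late in assembly. Its log2 signals were 10.84, 10.93 and 11 in C57, 10.74, 10.80, 10.76 and 10.73 in mdx, and 10.61, 10.32, 10.53 and 10.60 in treated mice. The 3 groups did not overlap, with C57 highest and treated lowest. Its difference from C57 was -0.17 ± 0.09 in mdx mice (adjusted p = 0.311) and -0.41 ± 0.09 in treated mice (-24.7%; adjusted p = 0.00993), and treated and mdx mice differed by -0.24 ± 0.09 (adjusted p = 0.0847).

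The count of 8 depended on the fit and on the mice too. It was 1 with the methods' t-test or the replicate number as a block, 3 with only the 2 groups compared, 16 with each array centred on its median and 21 with array weights. It was 1 without C57 mouse 3, 4 without C57 mouse 2, 5 without mdx mouse 3, 3 without treated mouse 1, treated mouse 3 or treated mouse 4, and 13 (12 lower and 1 higher) without treated mouse 2. The treated mice lay wholly below the C57 mice for 16 of the 41 tested genes and wholly above them for 1, with a background of 14.1% of probe sets lower and 17.9% higher. By class, the median difference was -0.25 over the 29 accessory genes (27 below 0, 7 called) and 0.03 over the 3 assembly factors. Of the 7 core genes 6 were below 0, with 0 called by limma and 3 at an unadjusted p under 0.05, of which 2 were lower and 1, Ndufs1, was higher. The 41 subunits of complexes II to V had a median of -0.12, with 38 below 0 and 1 called lower, Cox5a (-0.36 ± 0.11). Macrophage genes were called higher in 5 of 8 cases, fibroblast genes in 5 of 6 and endothelial genes in 2 of 4, and adipocyte genes lower in 3 of 4. In C57 mice the adipocyte sum was 445 to 716 and the endothelial sum 1570 to 1940, and in treated mice the fibroblast sum was 5700 to 8580. The blood genes had 0 of 3 called by limma in all 3 comparisons and 0 at an unadjusted p under 0.05. Their part was not tested.

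**Figure D4:**
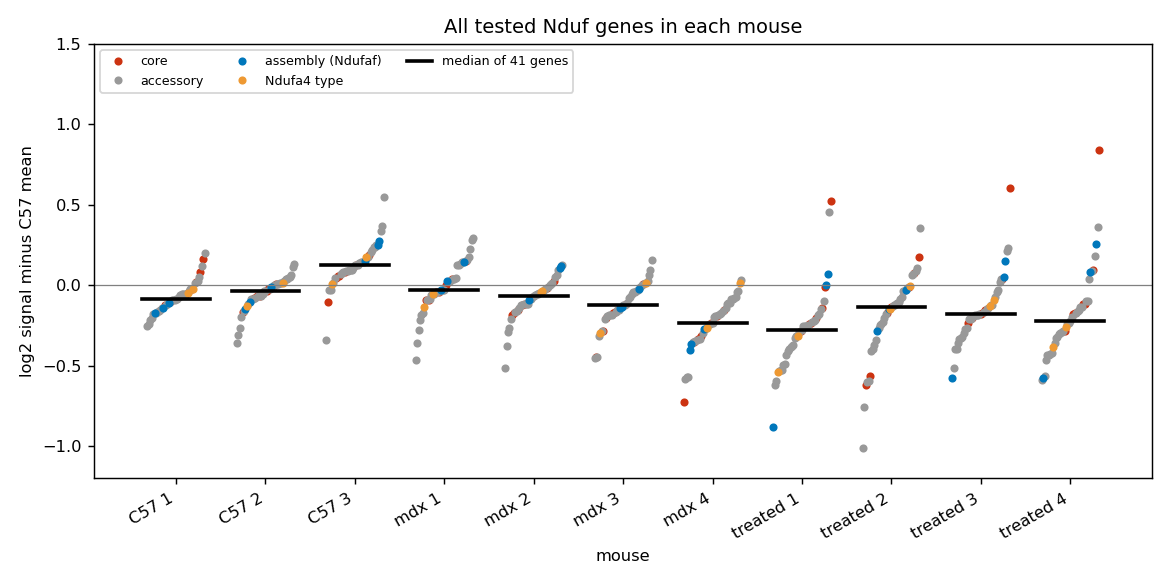
All 41 tested Nduf genes in each mouse as log2 signal minus the C57 mean (vertical axis), coloured by class, with the median of the 41 as a black bar. The medians are -0.09, -0.03 and 0.13 in the C57 mice, -0.03 to -0.23 in the mdx mice and -0.13 to -0.28 in the treated mice.

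The mice of a group differed in how many of the genes lay outside the range of another group. C57 mouse 3 was above every mdx mouse at 31 of the 41 genes, against 11 and 12 for C57 mice 1 and 2. Its median distance from the C57 mean was 0.13, against -0.09 and -0.03. In the mdx group mouse 4 was below every C57 mouse at 29 genes and mouse 1 at 7, and their medians were -0.23 and -0.03. In the treated group mouse 1 was below every mdx mouse at 26 genes and above every mdx mouse at 4, and treated mice 2, 3 and 4 were below at 15, 14 and 19 and above at 6, 9 and 9. The per-mouse medians of C57 and mdx mice overlapped, and those of C57 and treated mice did not. Over all probe sets tested, the median distance from the mdx mean was between -0.02 and 0.03 in each of the 11 mice. This median covers probe sets of every signal level. It cannot show a shift limited to probe sets with high signals, which most Nduf genes have. A background matched for signal was not tested.

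The median distance of treated mouse 2 from the mdx mean was -0.05, against -0.16, -0.08 and -0.13 in treated mice 1, 3 and 4. Treated mouse 2 also differed from these mice by gene. It was the lowest treated mouse at, for example, Ndufa8, Ndufa10 (10.34 against 10.98 to 11.20), Ndufa12, Ndufs4 (10.17 against 10.96 to 11.27), Ndufs5, Ndufs8 and Ndufv2, and the highest at Ndufa1 (9.20 against 8.49 to 8.90), Ndufa2, Ndufa3, Ndufb2 (9.54 against 8.79 to 9.11), Ndufs6 and Ndufv1.

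For 4 of the genes with several probe sets (Ndufs3, Ndufa11, Ndufb4 and Ndufb11) the brightest probe set was placed in the deposited annotation on another chromosome than the gene has in RefSeq, and all 4 are marked there as likely to hybridise to more than 1 sequence. With the probe set at the gene's own place the numbers of genes called were 1, 4 and 8, as before, and Ndufb4 differed by -0.30 ± 0.08 between treated and C57 mice (adjusted p = 0.0238). Ndufs5 had a second probe set, on chromosome 16, that also passed there (-0.38 ± 0.11, adjusted p = 0.0292), as did the second of Ndufab1 (-0.45 ± 0.13, adjusted p = 0.0286). The same mark is carried by the own-place probe sets of Ndufb4 and Ndufs3, both probe sets of Ndufab1 and the chromosome 16 probe set of Ndufs5. The mRNAs of these genes could share signal with near-identical copies and are uncertain to that extent.

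The complex I genes of mitochondrial DNA were measured by 6 probe sets, of which 5 were not called in any comparison. The sixth, ND6, ranged on the log2 signal scale from 4.13 to 4.66 over the C57 mice, from 3.88 to 5.11 over the treated mice and from 8.42 to 9.03 over the mdx mice. The latter lay far above both of the other groups. The C57 and treated means, 4.38 and 4.73, were under the minimum signal of 30 on the linear scale, so the probe set was tested through the mdx group alone and no size of difference is given. With ND6 included, all 6 were below 0 in treated against mdx mice, with a median of -0.16. Of these, 3 were lower at an unadjusted p under 0.05 in limma, ND6 among them. In mdx against C57 mice 5 were above 0 (1 at that level, ND6). In treated against C57 mice 5 were below 0 (0 at that level).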

How the data were processed

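Gene expression was measured in 11 tibialis anterior muscles with Mouse Gene ST 1.1 arrays, 1 per mouse. Per the labels and methods, the authors extracted RNA with TRIzol and normalised the arrays by RMA-Sketch in Affymetrix Expression Console (background correction, sketch-quantile normalisation, median polish). Versions and the genome build of the annotation are not given in the sources used here. The deposited values are linear intensity per probe set, and the removal of signals below 30 described in the methods had not been applied to the table.

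Intensities were log2-transformed. Groups came from the sample labels. Probe sets with a mean of at least 30 in at least 1 group (14494 of 28350) were fitted with 1 mean per group over all 11 mice with limma 3.58.1 in R 4.3.3. P-values were adjusted by the Benjamini-Hochberg method across these probe sets, and a gene counted as called at an adjusted p under 0.05. Errors are standard errors of the fit and intervals cover 95%. The fit was tested on simulated data. Nothing says whether mice shared a litter or an array plate, so p-values measure only the spread between these mice. Levels of different probe sets were not compared.

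The members, gene lists and tests were chosen with earlier results of these data known. The named genes were all core and Ndufaf genes (1 gene, counted in the totals, is not reported here), Ndufa4 and Ndufa4l2, every other called member, the 3 accessory genes with the highest and the 3 with the lowest difference in the first 2 comparisons, and called assembly factors and regulators. Alternatives were another test (the methods' t-test), prior, weights, filter, centring, normalisation, probe set and threshold, the replicate number as a block, and each mouse left out. Motifs were searched in RefSeq promoter windows (GRCm38.p6) with Python.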

Additional observations from a re-analysis of the deposited data

Results flagged for a closer look

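In groups of 4, a mouse is marked here when its gap to the nearest of the others takes up more of the whole range than Dixon's 95% limit allows. Over 47 genes, 94 groups were examined and 8 were marked, and chance marks about 1 in 20. Mouse 4 of the mdx group was low in 4 of them: Ndufs8 (11.72 against 11.91 to 11.94), Ndufa2 (10.94 against 11.14 to 11.17), Gabpa (5.46 against 5.71 to 5.74) and Ppargc1a (7.01 against 7.66 to 7.77). Treated mouse 2 was low in 3: Ndufs8 (11.29 against 11.71 to 11.73), Ndufv2 (10.95 against 11.50 to 11.61) and Ndufaf5, listed as 2310003L22Rik (5.58 against 5.91 in each other mouse). Treated mouse 1 was low in 1, Ndufa6 (10.69 against 11.05 to 11.06), an accessory subunit of the matrix arm. All values are log2 signals.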

How the results depend on the processing

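The number of Nduf genes called was 1, 4 and 8 in mdx against C57, treated against mdx and treated against C57. It became 2, 0 and 1 with the methods' t-test, 1, 0 and 3 with only the 2 groups compared, 3, 14 and 21 with array weights, 2, 2 and 7 with no signal filter, 2, 4 and 8 with a minimum signal of 100, 3, 4 and 16 with each array centred on its median, 2, 1 and 6 with quantile normalisation repeated, and 0, 1 and 0 at p under 0.01 and 1.5-fold. With the replicate number as a block it was 0, 0 and 1, and the mice share only that number: over 10 pairs with the same number, the deviations from the group means correlated from -0.30 to 0.15, and 1 of the 11 mice correlated best with a mouse of its own number. Leaving out 1 mouse gave 0 to 2, 0 to 9 and 1 to 13. The causes were not tested. The probe set at the gene's own place was chosen as an alternative after seeing the data. Ndufaf6 kept its call in mdx against C57 in all 23 alternatives run.

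Class medians moved by more than 1 SD between mice in these cases. For treated against mdx, repeated quantile normalisation gave -0.054 for accessory and 0.0931 for core genes, and a minimum of 100, which left out Ndufaf4, gave -0.17 for assembly factors. For treated against C57, assembly factors were at 0.14 with array weights and -0.25 with the minimum of 100. They were at -0.11 with repeated normalisation and 0.155 without C57 mouse 3. In that comparison core genes were at -0.19 with arrays centred and -0.0635 with repeated normalisation.

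None of the differences that changed sign was called. With array weights Ndufaf3 (0.0175) and Ndufs8 (0.0196) in mdx and Ndufv2 (0.0435) against C57 did. With repeated normalisation 2310003L22Rik (-0.0283), 2310030N02Rik (-0.0016), Ndufs3 (0.0931) and Ndufs7 (0.0106) did against mdx, and 2410091C18Rik (-0.0624), Ndufaf4 (-0.11), Ndufv1 (0.0172) and Ndufv2 (0.0214) against C57. Centring turned Ndufaf4 against C57 (-0.0183), and the probe set at its own place turned Ndufb11 in mdx (-0.0367). With 1 mouse left out, the differences in mdx ran from -0.148 to 0.0775 for Ndufaf3, -0.177 to 0.025 for Ndufaf4, -0.0167 to 0.075 for Ndufb11 and -0.0775 to 0.0133 for Ndufs8, those of treated against mdx mice from -0.0125 to 0.143 for 2310003L22Rik and -0.0075 to 0.123 for Ndufv1, and those of treated against C57 mice from -0.0067 to 0.123 for 2410091C18Rik, -0.045 to 0.155 for Ndufaf4 and -0.18 to 0.04 for Ndufv2.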
